A study of Mus musculus with 12 samples.

Results

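The genes described here are 6 genes of the red cell lineage, Alas2, Slc4a1, Klf1, Hemgn, Rhag and Tfrc, measured in whole murine hip cartilage RNA as a gauge of how much marrow the samples held. Every probe carrying one of these symbols was taken, which gave 9 probes of the 21004 in the normalized table and 6 genes of 15424. No further probe of these genes lay among the 45281 probes of the non-normalized table. Each of the 9 probes was detected on all 12 arrays, so no member was lost to a filter on low values.

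RNA was hybridized to Illumina mouse BeadChips, on which each gene is read by 1 or more short probes. The 12 arrays covered control and injured cartilage of WT and of Mapk9 KO mice, with 3 arrays in each of the 4 conditions. All mice were on the C57BL6 background, aged 4 to 6 weeks by the labels and 5 to 6 weeks by the methods, and each replicate pooled 6 hips of 3 mice. Injury was the avulsion of the cartilage cap from the femoral head. In both genotypes the control tissue was frozen at once and the injured tissue was kept in serum-free medium for 4 h. By the methods the control tissue was avulsed as well, so no group lacked the avulsion. Injury and culture cannot be told apart. Mapk9 encodes a c-Jun N-terminal kinase, and how the knockout was made is not given in the sources used here. The Mapk9 probe ILMN_2591066 differed by -1.57 log2 units between Mapk9 KO and WT control cartilage (SE 0.21, adjusted p = 0.0151, limma), and the probe ILMN_2716527 was undetected on all Mapk9 KO arrays and on 2 of 3 WT injured arrays, while ILMN_2591066 stayed detected on all 12.

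Red cells are made in the marrow that fills the bone next to the cartilage. Committed precursors stop dividing, fill with hemoglobin, lose the nucleus and enter the blood. KLF1 is the transcription factor that switches on the adult globin gene and much of the red cell programme. ALAS2 catalyses the first step of heme synthesis in red cell precursors, and the transferrin receptor TFRC brings in the iron that heme needs. Band 3, encoded by Slc4a1, is the main anion exchanger of the red cell membrane, and RHAG is an ammonium and gas channel of the same membrane. HEMGN is a nuclear protein of blood precursors. Cartilage itself has no blood vessels, and TFRC, unlike the others, is used by dividing cells of many kinds. In whole-tissue RNA, fewer red cell precursors and less RNA per precursor cannot be told apart.

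The probes are shown because they decide which values are separate measurements. The 3 Rhag probes begin at positions 1039, 1040 and 1041 of the transcript and share 48 of 50 bases, shown in capitals, so they are repeat readings of 1 place in the transcript.
ILMN_1254019: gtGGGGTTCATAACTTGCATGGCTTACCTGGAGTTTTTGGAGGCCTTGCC
ILMN_2745515: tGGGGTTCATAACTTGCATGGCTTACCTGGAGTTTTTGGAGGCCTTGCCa
ILMN_2745513: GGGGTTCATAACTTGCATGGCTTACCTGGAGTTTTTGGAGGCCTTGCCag

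The 2 Tfrc probes begin 87 bases apart, at positions 4268 and 4355, and share no bases. Their first 30 bases are given here, as are those of the Slc4a1, Klf1 and Hemgn probes. The Alas2 probe is given whole.
Tfrc ILMN_2619848: cactaggctctcagggtcttggcaccactc
Tfrc ILMN_2860804: gtcccttcagtcttcacagtgtttctcttg
Slc4a1 ILMN_1227675: cgctcttcccccaccgccgtgcttgggaat
Klf1 ILMN_2665087: ctggacgcagatggactggggtgagatttc
Hemgn ILMN_1239447: ccaagggcaggacgctgatgcacaggacag
Alas2 ILMN_2675874: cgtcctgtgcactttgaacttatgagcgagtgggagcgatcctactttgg

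In WT cartilage, Klf1, Hemgn and Rhag were downregulated post injury, by between 2.34-fold for Klf1 and 3.26-fold for a Rhag probe. Alas2 and Slc4a1 did not pass the threshold in either genotype. In Mapk9 KO cartilage Klf1 and Hemgn were downregulated 3.58-fold and 3.54-fold, and Rhag and Tfrc were each called on 1 probe. A gene was called when the fold change of any of its probes was above 2 with an adjusted p under 0.05. By that rule 3 of 6 genes were lower in WT, where 8.25% of all genes were lower, and 4 of 6 in Mapk9 KO, where 10.4% were lower. After quantile normalization without background correction the WT count was 4, where 2.54% of all genes were lower. The Mapk9 KO count was then 2, without Rhag and Tfrc, where 4.54% were lower. None of the 6 was called higher, where 8.36% of all genes were higher in WT and 10.6% in Mapk9 KO. The median change of the 6 main probes, a gene's main probe being its brightest, was -1.03 on the log2 scale in WT and -0.90 in Mapk9 KO, against -0.02 and -0.04 over the main probes of all genes.

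**Figure D1:**
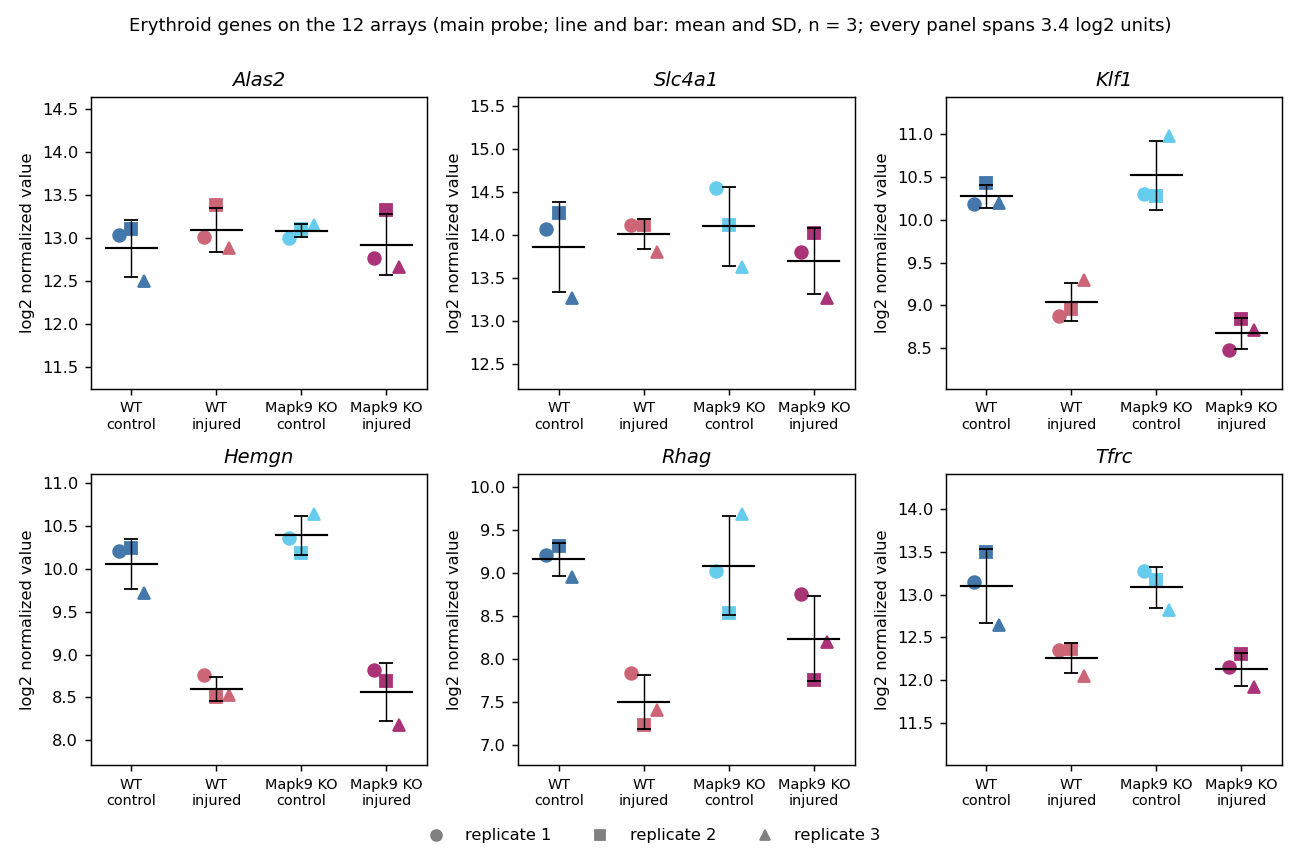
Log2 normalized value (vertical axis) of the main probe of each gene on each of the 12 arrays, by condition (horizontal axis), with symbols for the replicate number, and the mean and SD of 3 arrays in black. Klf1, Hemgn and Tfrc sit lower on every injured array than on every control array of the same genotype, Rhag does so in WT and overlaps in Mapk9 KO, and the Alas2 and Slc4a1 groups overlap throughout. The share of all probes whose groups separate in this way was not counted.

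Klf1, the regulator, read 10.19, 10.43 and 10.19 on WT control arrays 1 to 3 and 8.88, 8.96 and 9.29 on the WT injured arrays, on the log2 scale. In Mapk9 KO the control arrays read 10.30, 10.28 and 10.98 and the injured arrays 8.48, 8.84 and 8.71. Each injured array was below each control array in both genotypes, and the highest value of all was that of Mapk9 KO control replicate 3. The log2 fold change was -1.23 (SE 0.20, adjusted p = 0.002) in WT and -1.84 (SE 0.22, adjusted p = 9.36e-05) in Mapk9 KO. In the signals before normalization, Klf1 on the injured array was between 0.367 and 0.402 times the control array of the same number in WT, and between 0.244 and 0.451 times in Mapk9 KO.

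Hemgn, the nuclear protein of blood precursors, read 10.21, 10.24 and 9.72 on the WT control arrays and 8.77, 8.51 and 8.52 on the injured arrays. The Mapk9 KO control arrays read 10.35, 10.18 and 10.63, and the injured arrays 8.82, 8.69 and 8.18. No injured value reached the control range of either genotype. The log2 fold change was -1.46 in WT (SE 0.22, adjusted p = 0.00105, 2.74-fold lower) and -1.83 in Mapk9 KO (SE 0.21, adjusted p = 7.63e-05).

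Rhag, the gas channel of the red cell membrane, read 9.21, 9.32 and 8.95 on the WT control arrays and 7.84, 7.24 and 7.41 on the injured arrays with its brightest probe, ILMN_2745515. The 3 probes gave changes of -1.48, -1.70 and -1.66 in WT, all past the threshold with adjusted p between 0.00059 and 0.00114. In Mapk9 KO the same probe read 9.03, 8.54 and 9.69 on the control arrays and 8.76, 7.76 and 8.20 on the injured arrays. Injured replicate 1 was higher there than control replicate 2, so the groups overlapped, as they did for the other 2 Rhag probes. In the signals before normalization the first Mapk9 KO pair of the same number did not show a clear fall, with injured over control ratios of 1.11, 0.911 and 1.10 for ILMN_1254019, ILMN_2745513 and ILMN_2745515. The other 2 pairs gave ratios between 0.369 and 0.647 over the 3 probes, and the WT pairs between 0.305 and 0.475. Only ILMN_2745513 was called in Mapk9 KO, at -1.12 (SE 0.33, adjusted p = 0.0199), while ILMN_1254019 gave -0.92 (adjusted p = 0.0367) and ILMN_2745515 -0.85 (adjusted p = 0.0543). The call was lost without Mapk9 KO control replicate 3 (-0.85, adjusted p = 0.072), without injured replicate 2 (-0.88, adjusted p = 0.073) and without injured replicate 3 (-1.05, adjusted p = 0.0616).

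Tfrc, the receptor for iron-loaded transferrin, read 13.15, 13.50 and 12.65 on the WT control arrays and 12.35, 12.36 and 12.05 on the injured arrays with its main probe, ILMN_2619848. The Mapk9 KO control arrays read 13.27, 13.17 and 12.82, and the injured arrays 12.16, 12.31 and 11.92. Control and injured arrays did not overlap in either genotype. Both probes stood close to the fold limit: in WT they gave -0.84 (SE 0.25, adjusted p = 0.0303) and -0.89 (SE 0.24, adjusted p = 0.022), and in Mapk9 KO -0.96 (adjusted p = 0.00271) and -1.03 (adjusted p = 0.000695). Only the last of these was called. Without WT control replicate 3, the lowest of its group, the WT changes were -1.07 and -1.11 and both were called. The Mapk9 KO call was lost without control replicate 2 (-0.998) and without injured replicate 3 (-0.97).

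Alas2, the heme synthesis enzyme, read 13.03, 13.11 and 12.50 on the WT control arrays and 13.01, 13.38 and 12.88 on the injured arrays. In Mapk9 KO it read 13.00, 13.11 and 13.15 on the control arrays and 12.77, 13.32 and 12.67 on the injured arrays. The groups overlapped in both genotypes, and the highest value in each genotype was that of injured replicate 2. The changes were 0.21 in WT (95% confidence interval -0.31 to 0.74, adjusted p = 0.56) and -0.17 in Mapk9 KO (interval -0.62 to 0.29, adjusted p = 0.567). Both intervals leave out a 2-fold change in either direction. Before normalization the ratios of injured to control signal in pairs of the same number lay on both sides of 1, from 0.809 to 1.12 in WT and from 0.718 to 1.15 in Mapk9 KO.

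Slc4a1, encoding band 3, read 14.07, 14.25 and 13.27 on the WT control arrays and 14.11, 14.12 and 13.81 on the injured arrays. In Mapk9 KO the control arrays read 14.55, 14.12 and 13.63 and the injured arrays 13.80, 14.02 and 13.27. Replicate 3 was the lowest of its group in all 4 conditions. The changes were 0.15 in WT (interval -0.45 to 0.75, adjusted p = 0.734) and -0.40 in Mapk9 KO (interval -0.99 to 0.19, adjusted p = 0.27). In Mapk9 KO each injured array read lower than the control array of the same number, with signals before normalization between 0.782 and 0.853 times the control. There the adjusted p was 0.0966 with the replicate block and 0.021 after quantile normalization, at a change of -0.39, below the fold limit. In the signals before normalization Slc4a1 was between 0.845 and 0.902 times the control of the same number in WT, and with 2 other normalizations the WT change was -0.20 for Slc4a1 and between -0.03 and -0.02 for Alas2, none of them called. The sign of the WT change of these genes is therefore not settled by the data.

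**Figure D2:**
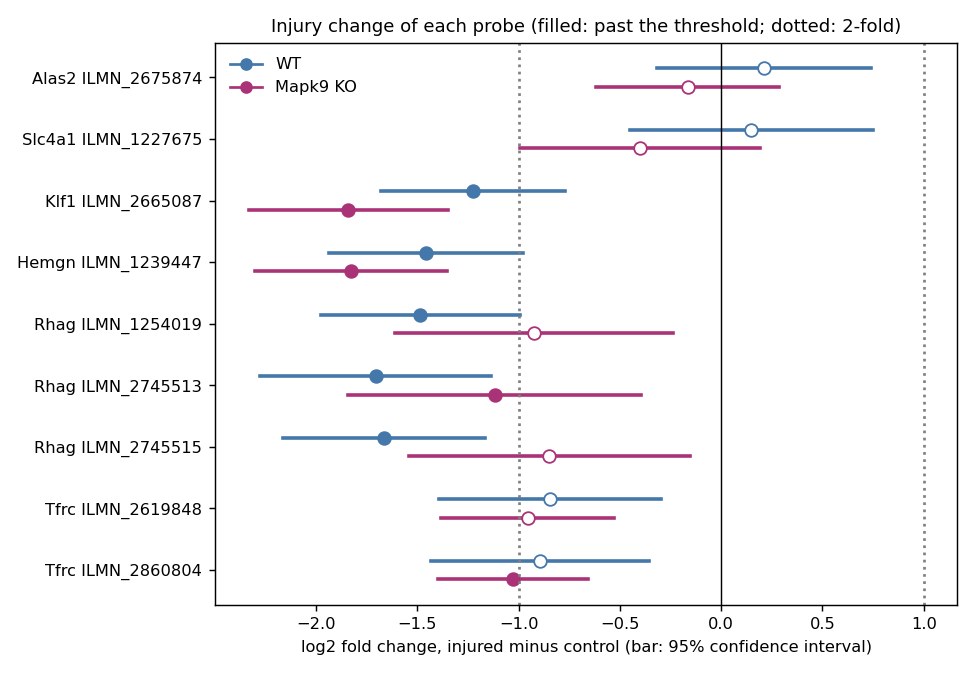
Log2 fold change post injury (horizontal axis) of each of the 9 probes (vertical axis) in WT and in Mapk9 KO, with 95% confidence intervals. Filled points passed the threshold, and dotted lines mark a 2-fold change: Klf1 and Hemgn lie beyond it in both genotypes, the Rhag points are closer to it in Mapk9 KO than in WT, and the Alas2 and Slc4a1 intervals cross 0.

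The difference between these groups of genes was also read within each array, from the normalized values. The mean log2 value of Klf1, Hemgn and Rhag minus that of Alas2 and Slc4a1 was -3.68, -3.68 and -3.26 on the WT control arrays and -5.07, -5.52 and -4.93 on the injured arrays. In Mapk9 KO it was -3.88, -3.95 and -2.96 on the control arrays and -4.60, -5.24 and -4.60 on the injured arrays. All 6 injured arrays were below all 6 control arrays. The mean shift post injury was -1.63 in WT and -1.22 in Mapk9 KO, against -1.35 and -1.26 after neqc and -1.08 and -1.03 after quantile normalization without background correction, so its size depends on the processing. The pairing of genes was chosen with their changes known, so this is a description and carries no test.

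Brightness moved with this split in 5 of the 6 genes. The Alas2 signal was between 28.8% and 55.6% of the brightest signal on its array, and the Slc4a1 signal between 54.7% and 87%, against at most 12.8% for Klf1, 10.2% for Hemgn and 5.56% for Rhag. Tfrc did not follow it: its main probe, between 20.4% and 51.8%, was about as bright as that of Alas2, and its control and injured arrays did not overlap in either genotype. Among the probes at least as bright as the dimmer of Alas2 and Slc4a1 on the control arrays of the other genotype, 16 of 314 were called lower and 1 higher in WT, and 21 of 323 lower and 1 higher in Mapk9 KO. With brightness taken as the mean over the 6 arrays compared, 0 of 319 were lower and 14 higher in WT, and 4 of 310 lower and 8 higher in Mapk9 KO. The direction of the split thus turned with the arrays that set the brightness, and none is read from it. Why it turned was not tested. With brightness again taken from the control arrays of the other genotype, and under the same limit, bright probes were set against dimmer ones. Such a bright probe was accompanied by one at least 2 log2 units dimmer in 50 genes for WT and 55 for Mapk9 KO. There the dimmer probes were called for 12 genes in WT and 8 in Mapk9 KO, and the bright probe for 2 and 3. A gene counted when any of its dimmer probes was called, and some had more than 1, so the counts are not like for like. Of all genes, 8.25% were lower and 8.36% higher in WT, and 10.4% and 10.6% in Mapk9 KO. Mpo, a neutrophil granule enzyme, changed by 0.67 in WT on its brightest probe, which was not called, and rose by 2.12 and 2.37 on 2 dimmer probes. Tpm2 went the other way in WT, at -2.88, called, on its bright probe and -0.99, not called, on its dimmer one. The genes of the erythroid lists with such a pair of probes were Prdx2, Epb4.1 and Hbb-b1, and no probe of theirs in this comparison was called in either genotype. Erythroid genes below that brightness are not covered, and their probes differed in both directions in WT. Trim10 gave -0.45, not called, on its main probe and -1.09, called, on a dimmer one. Gfi1b gave -1.24, called, on its main probe and -0.66, not called, on a dimmer one. Prdx2, a peroxide-reducing enzyme of red cells, changed in WT by -0.27 on its bright probe and by -0.49 and -0.20 on its dimmer ones. Epb4.1, a protein of the red cell membrane skeleton, changed in WT by -0.10 on its bright probe and by -0.08, -0.15 and -0.89 on its dimmer ones. The Hbb-b1 probe ILMN_1235372, the dimmest of that beta globin's probes at 11.46 on the WT control arrays, changed by 0.19 in WT and -0.21 in Mapk9 KO and was not called. The part of brightness in the unequal changes was not tested.

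**Figure D3:**
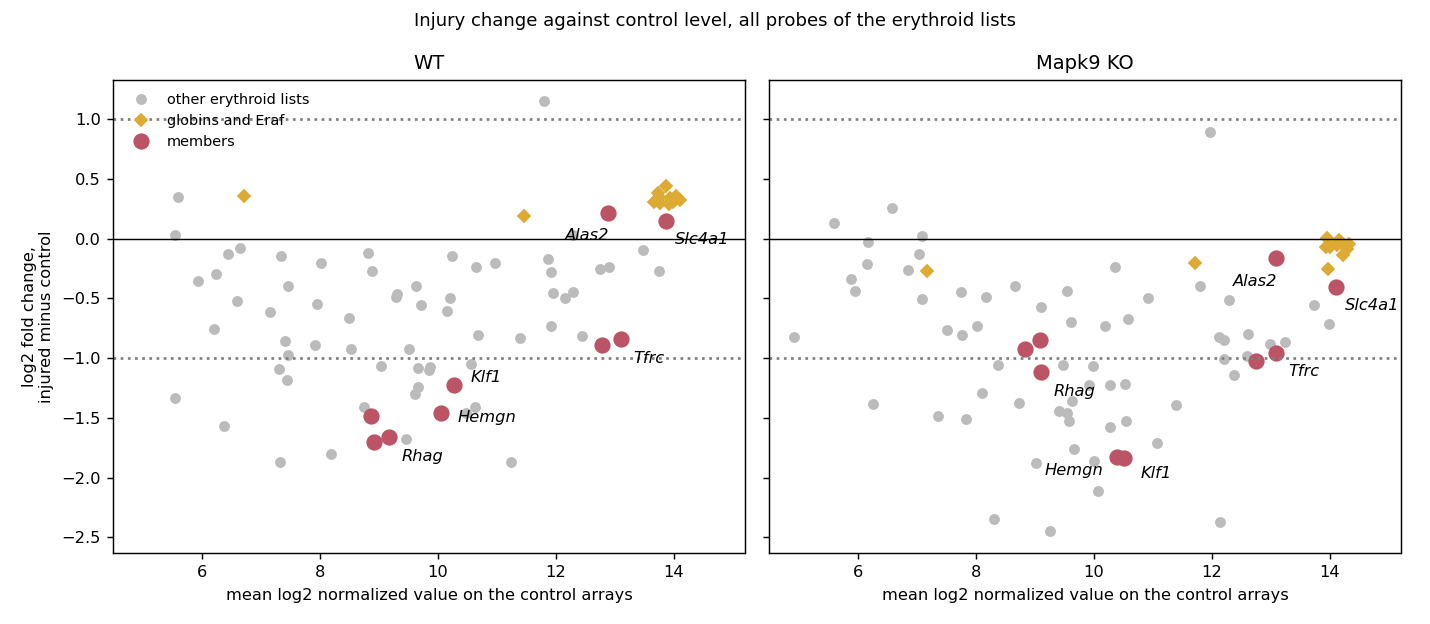
Log2 fold change post injury (vertical axis) against the mean log2 value on the control arrays (horizontal axis) for every probe of the erythroid lists, in WT (left) and Mapk9 KO (right). Most globin probes, with Alas2 and Slc4a1, lie at the bright end near 0, and Klf1, Hemgn and Rhag lie lower and further left, among other erythroid probes that changed as much.

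No member was called between genotypes. In control cartilage 0 of 6 genes were called, where 0.11% of all genes were lower and 0.0389% higher in Mapk9 KO. These shares are 17 and 6 genes, against 50 lower and 291 higher without WT control replicate 3. At an unadjusted p under 0.05 (limma), 0 of the 9 probes passed, against 7.85% of all genes. The differences ran from -0.07 for a Rhag probe to 0.33 for Hemgn (interval -0.18 to 0.84). In injured cartilage 0 of 6 were called, where 0.13% of all genes were lower and 0.0778% higher (20 and 12 genes, 29 and 145 with the replicate block, and 33 and 113 without WT injured replicate 1). There 2 Rhag probes were higher in Mapk9 KO at an unadjusted p of 0.0207 and 0.0179, by 0.77 and 0.74, with adjusted p of 0.317 and 0.303, in a comparison where 15.4% of all genes had an unadjusted p under 0.05. Klf1 gave a mean difference of -0.37 log2 units in injured cartilage (interval -0.77 to 0.04, adjusted p = 0.439).

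The interaction term, which asks whether the injury change differed by genotype, was called for 0 of 6 members and for 0% of all genes, while 1907 genes had an unadjusted p under 0.05. With the replicate block 96 genes were more positive and 9 more negative in Mapk9 KO. The balance turned without WT control replicate 3, at 24 more positive and 185 more negative. None of these genes was a member. The lowest adjusted p among the members belonged to Klf1, whose injury change in Mapk9 KO minus that in WT was -0.61 (interval -1.26 to 0.03, adjusted p = 0.524). Rhag ran the other way on its main probe, by 0.82 (interval -0.08 to 1.72, adjusted p = 0.543). With 3 arrays a group and no replicate block in the fit, these intervals span more than 1 log2 unit. Neither equal nor unequal responses of the genotypes are therefore shown.

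The other genes of the pathway were taken from lists of known red cell genes, counted over genes with a probe in the table. Genes of heme synthesis were downregulated where they were called: 4 of 11 were lower in WT (Fech, Uros, Ppox and Abcb10) and 6 of 11 in Mapk9 KO, none was higher, and the median changes were -0.49 and -1.004. The WT count was 1 by the methods' t-test and 2 after quantile normalization, and the Mapk9 KO count 3 after the latter. Fech, which inserts iron into the porphyrin ring, changed by -1.81 in WT (SE 0.30, adjusted p = 0.00182) and by -1.06 in Mapk9 KO. Uros, an enzyme midway in the pathway, changed by -1.68 on its probe ILMN_2498173 in WT (adjusted p = 0.00101) and by -1.52 in Mapk9 KO. The main probe of Uros gave -0.93 in WT, not called, and -1.36 in Mapk9 KO, called. Ppox was called in WT only on a dimmer probe, at -1.09, and its main probe gave -0.24 (adjusted p = 0.533).

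Of the red cell membrane and skeleton genes, 5 of 13 were lower in WT and 9 of 13 in Mapk9 KO, with medians of -0.81 and -1.29 and none higher. By the methods' t-test 2 were lower in WT. Epb4.9 was called in WT only on a dimmer probe, at -1.10 against -0.81 on its main probe. Ank1, the ankyrin that ties band 3 to the membrane skeleton, was called on all 4 of its probes in both genotypes. Its brightest probe changed by -1.41 in WT (SE 0.23, adjusted p = 0.00203) and by -1.53 in Mapk9 KO. The anion exchanger and the protein that anchors it carried different calls in both genotypes.

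Erythroid transcription factors split in WT: Gfi1b, a repressor needed for red cells and platelets, fell by 1.24 on the log2 scale (adjusted p = 0.00595), while Nfe2, a factor shared by red cells, platelets and other blood cells, rose by 1.15 (adjusted p = 0.00633). The other 3 of 5 were not called in WT. In Mapk9 KO 3 of 5 were lower (Gata1, Gfi1b and Tal1), none was higher, and the median was -1.22 against -0.61 in WT. The rise of Nfe2 was not called after neqc or quantile normalization, and by the methods' t-test neither Nfe2 nor Gfi1b was called in WT. After quantile normalization 2 genes were lower in Mapk9 KO.

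Of the late red cell enzymes and regulators, 3 of 8 were lower in each genotype, with medians of -0.53 and -0.80. The WT count was 1 by the methods' t-test, and the count in each genotype was 1 after quantile normalization. Trim10 was called in WT only on a dimmer probe. Car1, the carbonic anhydrase of red cell precursors, changed by -1.87 in WT (SE 0.26, adjusted p = 0.00078) and by -2.37 in Mapk9 KO. Trfr2, the second transferrin receptor, changed by -1.19 and -1.49, and the erythropoietin receptor Epor was called lower in Mapk9 KO, while its interaction term was not called.

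None of the 4 genes of the list of globins and their chaperone was called in either genotype. The median change was 0.34 in WT and -0.17 in Mapk9 KO, and in WT it was -0.02 after neqc and after quantile normalization, so it has no settled sign. The brightest beta globin probe of Hbb-b1 changed by 0.32 in WT (adjusted p = 0.37) and by -0.04 in Mapk9 KO (adjusted p = 0.908). Its 10 probes read near-identical gene copies and are not separate genes.

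Genes of iron handling moved both ways: 3 of 12 were higher and 3 lower in WT, and 3 higher and 2 lower in Mapk9 KO (2 and 1 after quantile normalization). Hmox1, the heme-degrading oxygenase, rose by 1.80 in WT (adjusted p = 0.00107) and was called higher in Mapk9 KO. Slc40a1, the iron exporter of macrophages and other cells, changed by -1.76 in WT (adjusted p = 0.000818) and by -1.80 in Mapk9 KO, and the copper ferroxidase Heph was lower as well. These genes are used by many cell types.

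**Figure D4:**
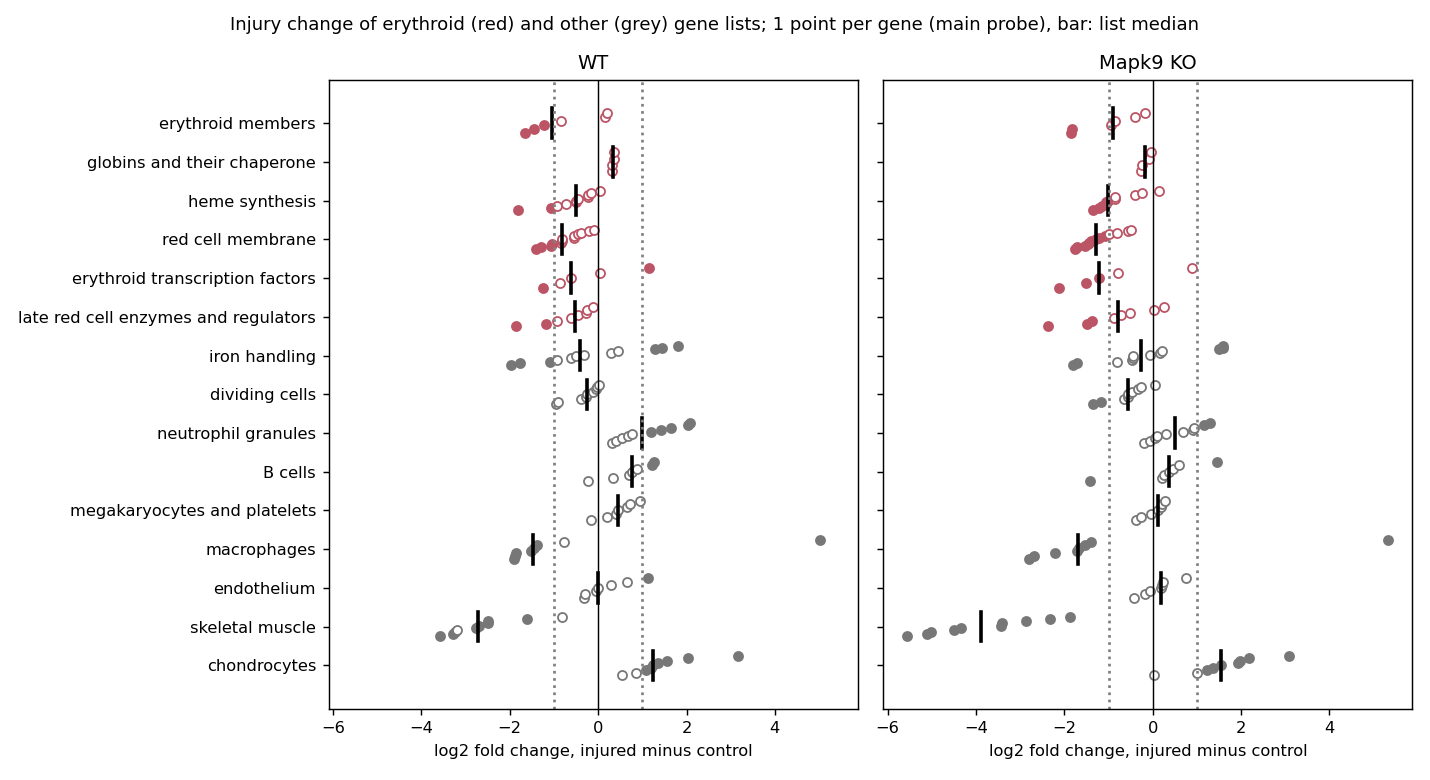
Log2 fold change post injury (horizontal axis) of each gene, by its main probe, in 6 erythroid lists (red) and 9 other lists (grey), in WT (left) and Mapk9 KO (right); filled points passed the threshold and black bars are list medians. The erythroid lists other than the globins have medians below 0 in both genotypes, neutrophil granule and chondrocyte genes above 0, and skeletal muscle and macrophage genes below the erythroid lists.

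Markers of the other cells that the samples could hold moved as well, and their part in the erythroid changes was not tested. Neutrophil granule genes were higher for 7 of 10 in WT and 5 of 10 in Mapk9 KO, with none lower and medians of 0.98 and 0.49. B cell genes were higher for 3 of 7 in WT (1 after quantile normalization), and in Mapk9 KO Vpreb1, a gene of B cell precursors, was lower (-1.41, adjusted p = 0.000307). By the methods' t-test 4 neutrophil and 1 B cell gene were higher in WT. None of 7 genes of megakaryocytes and platelets was called in either genotype, and the medians were 0.45 and 0.12. The mean log2 value of the granule genes ran from 12.14 to 12.94 in WT control cartilage and from 13.44 to 13.69 in injured WT cartilage, while that of the 6 erythroid genes ran from 11.21 to 11.81 and from 10.66 to 10.83.

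Macrophage genes were lower for 6 of 8 in WT and 7 of 8 in Mapk9 KO, among them the complement gene C1qb at -1.90 in WT, while the receptor Cd14 rose by 5.01. Skeletal muscle genes were lower for 8 of 10 and 10 of 10, with medians of -2.73 and -3.89. By the methods' t-test 0 of 10 were called in WT and 9 in Mapk9 KO. Their mean log2 value ran from 10.62 to 12.42 on the WT control arrays and from 7.75 to 9.75 on the injured arrays. Chondrocyte genes were higher for 7 of 9 in WT and 8 of 9 in Mapk9 KO, with medians of 1.25 and 1.54, and Col11a1 was lower in WT on a dim probe. By the methods' t-test 4 chondrocyte genes were higher in WT. Of 7 endothelial genes, Cdh5 was higher in WT, though not after quantile normalization, and none was called in Mapk9 KO. None of 9 genes of dividing cells was called in WT, and 3 were lower in Mapk9 KO (Ccnb1, Rrm2 and Top2a), with medians of -0.26 and -0.55. In tissue labelled hip cartilage, at least 6 genes of each of these lists, muscle and marrow cells included, were detected on all 12 arrays.

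Within a condition, some members varied together from array to array and others did not. Deviations from the condition mean correlated best between Slc4a1 and Tfrc (Pearson r = 0.95 over 12 arrays), then between Alas2 and Tfrc (0.69), Hemgn and Rhag (0.62) and Alas2 and Slc4a1 (0.62), and worst between Slc4a1 and Klf1 (-0.35). These points share arrays and normalization and are given as a description. The deviations of Slc4a1 and Tfrc also followed those of the 99th percentile of all log2 values on the array (r = 0.88 for each), as did those of Alas2 (0.76), whereas Hemgn (0.22), Klf1 (-0.25) and Rhag (-0.51) did not. The 99th percentile was lowest in WT control replicate 3, at 13.01, and highest in WT injured replicate 2, at 13.70. Over the mean of the 5 genes other than Tfrc, WT control replicate 3 stood lowest in its condition, with a deviation of -0.32 log2 units, and Mapk9 KO injured replicate 3 lowest in its own, at -0.21.

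Of 14780 other genes, those whose deviations were most like that mean were A630053O10 (r = 0.94), Trak2 (0.93), B130055D15Rik (0.93), Hagh (0.92), Kel (0.92), Bex4 (0.91), D430044G18Rik (0.91), Tbxas1 (0.91), Mtmr3 (0.91) and Samd11 (0.91), over 12 arrays. Kel, a blood group antigen of the red cell membrane, is the only one of these on the lists used here. The median r over all candidates was 0.09 and that of Tfrc 0.60. A like deviation within conditions went with different injury changes: in WT Mtmr3 rose by 1.43 (adjusted p = 0.00125), D430044G18Rik fell by 1.21 (adjusted p = 0.00562), and Kel gave -0.20 (adjusted p = 0.627).

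Promoter letters of the members are shown for the core bound by GATA factors, since GATA1 drives red cell genes. RefSeq promoters (GRCm38.p6) matched 5 of the 6 members, with 2 start sites for Tfrc, and Slc4a1 was not matched. The letters GATAA, searched on both strands in the 250 bases before each start, were found in 4 of the 5, Alas2, Hemgn, Klf1 and Rhag, and in 22.6% of all 32851 promoters. The stretches of 30 bases around each match are given with the match in capitals, as TTATC where it lies on the other strand.
Alas2 (chrX:150547319-150547348, plus strand, match 86 bases before the start): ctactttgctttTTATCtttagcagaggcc
Klf1 (chr8:84901890-84901919, plus strand, 80 bases before): tttgcctgggtcTTATCagggaagacagcc
Rhag (chr17:40811106-40811135, plus strand, 31 bases before): agtcctctgctcTTATCaacactatacagc
Hemgn (chr4:46404184-46404213, minus strand, 12 bases before): ctcacacctgtgcagtgtGATAAagaaagt

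The letters CACCC, the core bound by KLF1, were found in 4 of the 5 members (Alas2, Klf1, Rhag and Tfrc) and in 52% of all promoters. Alas2, which was not called post injury, held both sets of letters, as did Klf1 and Rhag, which were. The matches are descriptions of the letters and name no bound site.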

How the data were processed

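Illumina mouse BeadChips measured RNA of 12 pooled cartilage samples, assigned to conditions from their labels. The authors deposited bead signal intensity for 45281 probes with a detection p-value per array, and log2 values for 21004 probes after background correction with negative control probes and vsn normalization. The versions of the normalization tools and the genome build are not given in the sources used here. Probes with a detection p-value under 0.05 were called detected, 16930 to 18969 per array. The array number limits the precision. Symbols were matched without regard to case.

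Each probe was tested with limma 3.58.1 in R 4.3.3 (lmFit, eBayes) on the deposited log2 values of the 6 arrays compared, with Benjamini-Hochberg adjustment over 21004 probes. The interaction used 12 arrays and the adjusted p alone. The threshold was that of the methods, an adjusted p under 0.05 with more than a 2-fold difference. The script was tested on simulated data. The members and gene lists were chosen with earlier results of these data known. All members and probes are named, and for each other list up to 4 called probes with the largest WT change, or the brightest where none was called. Dim probes not detected in a group are named without values. Some genes that fall under this naming rule are left out. Other genes named beside a count, the comparison of bright and dim probes, the motif letters and the within-array difference were chosen after values were seen.

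Replicates of one number deviated together (r from 0.153 to 0.390 over 18 such pairs), and for the 36 other pairs r ran from -0.289 to 0.0825. The numbers thus pair the samples by this check. The SEs, intervals and adjusted p given are those of fits without the block, and the blocked fit is an alternative, which changed no member's call. The alternatives were quantile normalization of uncorrected signals, neqc with an offset of 16, median centring, a detection filter, 1 fit of all arrays, the replicate block, a block by label code number, no fold limit, the methods' t-test and leaving out each array.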

Additional observations from a re-analysis of the deposited data

How the results depend on the processing

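The calls of Hemgn, Klf1 and Rhag in WT and of Hemgn and Klf1 in Mapk9 KO held under every alternative run, and Alas2 and Slc4a1 were called under none. With the replicate block, the paired fit, 3 genes were called in WT and 4 in Mapk9 KO, the same genes as without it, and 0 for genotype and interaction. The WT count was 3 to 4 and changed through Tfrc, which was called after neqc (-1.09 and -1.11) and quantile normalization (-1.08 and -1.09). The Mapk9 KO count was 2 after quantile normalization without background correction, where Rhag ILMN_2745513 gave -0.88 and Tfrc ILMN_2860804 -0.98. By the methods' t-test Rhag ILMN_2745513, at -1.12, was not called (adjusted p = 0.158) and 3 genes were. With each array left out in turn, the WT count was 3 to 4 and the Mapk9 KO count 2 (without injured replicate 3) to 4. WT Tfrc ran from -1.07 to -0.64 (ILMN_2619848) and from -1.11 to -0.68 (ILMN_2860804). Mapk9 KO Rhag ran from -1.22 to -0.65 (ILMN_1254019), -1.43 to -0.85 (ILMN_2745513) and -1.12 to -0.55 (ILMN_2745515), and Tfrc from -1.09 to -0.85 and from -1.10 to -0.97. Over all genes, 1272 were lower and 1289 higher in WT, against 391 and 576 after quantile normalization, 574 and 839 by the methods' t-test and 2231 and 2181 without a fold limit. In Mapk9 KO 1598 and 1640 became 701 and 762 after quantile normalization and 3359 and 3171 without a fold limit. The genotype counts, 17 lower and 6 higher in control cartilage and 20 and 12 in injured, were 0 by the t-test and rose in control cartilage to 50 and 291 without WT control replicate 3 (3 to 5 higher without any other control array), and in injured cartilage to 29 and 145 with the replicate block, 33 and 113 without WT injured replicate 1 and 22 and 35 without Mapk9 KO injured replicate 2, and the higher count was 3 to 4 without any other injured array. The interaction called 0 genes, 96 more positive and 9 more negative in Mapk9 KO with the replicate block, and 24 and 185 without WT control replicate 3, none of them a member. The cause of these shifts was not tested.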
